A study of Mus musculus with 4 samples.

Results

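The genes of the proteasome, the multi-subunit protease that degrades ubiquitin-tagged proteins, were examined in mouse epidermal stem cell cultures. They were taken as the protein-coding genes whose symbols begin with Psma, Psmb, Psmc, Psmd, Psme, Psmf or Psmg and end in a number. This gave 48 of the 54532 genes of the table. The cells are the progenitors of the keratinocytes. They came from skin of C57BL/6 mice, and the culture medium was EpiLife with HKGS. They were exposed for 48 h to 30 μg/mL ALP or, as control, to 0.06% DMSO. ALP was taken to be the polysaccharide of burdock (Arctium lappa L.) that the series title names. There were 2 libraries in each group, called A and B here as names only. The sources used here do not state the age or sex of the mice, how many animals were used, or whether DMSO was also present in the ALP cultures. Separate cultures or animals behind the libraries of a group are not stated. The p-values set the difference between the groups against the scatter of these samples, and that scatter may be technical.

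Library totals lay between 15766244 and 17430345 counts. Levels are given as CPM, counts scaled to a common library size by TMM. The 6 basal keratinocyte markers summed to 36147 and 29850 CPM under ALP and 48103 and 48336 CPM in the controls, and by the edgeR test below 2 of them rose (Itga6, Itgb4) and 2 fell (Trp63, Col17a1). The summed level of 5 immune cell markers was 0.174 and 0.259 CPM under ALP and 0.227 and 0.40 CPM in the controls, with Cd3e and Cd207 at 0 in every library. Melanocyte markers, 5 in all, summed to 64.7 and 53.7 CPM under ALP and 62.0 and 56.7 CPM in the controls. The 5 fibroblast markers summed to 7.06 and 4.01 CPM under ALP and 16.0 and 12.6 CPM in the controls, with Lum at 0 throughout, and Dcn fell. The 4 endothelial markers summed to 14.6 and 25.0 CPM under ALP and 6.17 and 7.71 CPM in the controls, most of it from Kdr and Pecam1, which rose, while Tek fell and the defining marker Cdh5 stayed at or below 0.113 CPM. The part of these cell types in the results below was not tested, and in bulk RNA fewer cells of a type and less RNA per cell cannot be told apart.

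The proteasome consists of a barrel-shaped core particle, built of outer alpha rings and inner beta rings, and a regulatory particle that caps it. The beta rings carry the proteolytic sites, whereas the regulatory particle recognises ubiquitin chains, removes them and unfolds the substrate with a ring of ATPases. In cells exposed to interferon, inducible subunits replace the constitutive catalytic ones to form the immunoproteasome. In mammals, transcription of the subunit genes is raised by NFE2L1 (also called NRF1), a factor that is itself unstable while the proteasome is fully active. In the epidermis as elsewhere, the constitutive complex is part of the basic equipment of every cell.

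Proteasome transcripts were modestly higher after ALP. They took 0.562% and 0.573% of all counts under ALP against 0.483% and 0.495% in control. Among the 46 members tested, 14 rose and 0 fell (edgeR quasi-likelihood test, adjusted p threshold 0.05), when 18.0% of all 14056 genes tested rose and 12.9% fell. The members that rose made up 30.4% of those tested. Their increases were small, between 24.1% and 90.2%, and none reached 2-fold. The median log2 fold change was 0.23 over the 46 members and -0.0029 over all genes tested. Both ALP libraries lay above both control libraries for 36 members (78.3%), against 38.2% of all genes tested, and below them for 4 members, against 37.5%. Among genes with a mean over 20 CPM in either group, to which 42 members belong, 33.3% of the members and 25.5% of all genes rose. At this level both ALP libraries lay above both controls for 83.3% of the members and 46.9% of all genes. The median log2 fold changes there were 0.24 and 0.055. A gene can reach this level through its ALP mean alone, as Psmb10 did (mean 20.8 CPM under ALP, 10.9 CPM in control). These shares and medians are therefore not independent of the change. In the authors' deposited table, 13 members had an adjusted p under 0.05 with ALP higher and 0 with ALP lower, all 13 among those that rose here, and of all genes with a value there 10.4% were higher and 7.64% lower.

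These calls rest on small spreads between few libraries. All 14 are lost when either control library is left out, with 9 members (control A left out) or 11 (control B left out) still at an unadjusted p under 0.05 in the upward direction. With no filter on low counts, which adds genes to the adjustment, none passed. The p-values themselves also changed, since 24 members were higher at an unadjusted p under 0.05 against 27 in the main fit. In the fit without the filter 0 of all genes passed in either direction. The loss of calls with a control library left out was not particular to the members, since it held over all genes tested. With 1 library left out, the median log2 difference lay between 0.20 and 0.27 over the members. Over all genes it lay between -0.024 and -0.002. The counts of calls by class below carry the same limit. They are to be read beside the shares of all genes tested given above. In the fits with 1 library left out, 37 to 41 of the 46 members had a log2 difference above 0. The log2 difference moved by over 1.5 times in at least 1 of these fits for 1 of the 14 members that rose, Psmd12, and for 14 of the 32 that did not pass (Psmb1, Psmb5 to Psmb8, Psmc5, Psmd4, Psmd8 to Psmd10, Psmd13, Psme1, Psmg3 and Psmg4). A difference near 0 passes this ratio on a small shift, and calls favour large differences with little scatter. The counts are therefore no comparison of called with uncalled members.

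**Figure D1:**
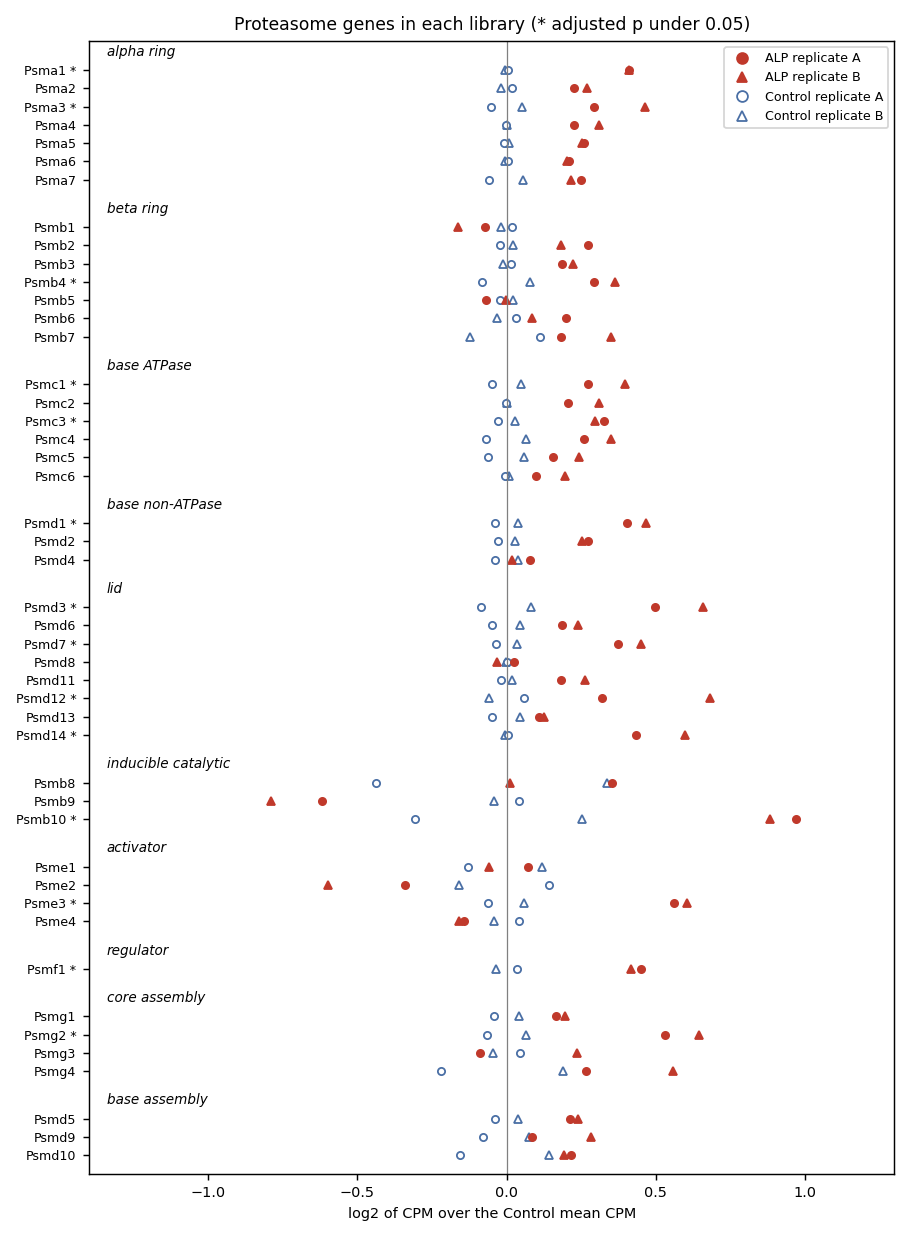
Level of each of the 46 tested proteasome genes in every library, as the log2 of its CPM over the control mean CPM, with genes ordered by class. Filled red symbols are ALP libraries and open blue symbols control libraries (circles replicate A, triangles replicate B). In most rows both red symbols lie to the right of both blue ones, by under 1 log2 unit. For Psmb1, Psmb9, Psme2 and Psme4 both lie to the left.

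The core particle showed small differences, higher under ALP for most genes. Of its 14 tested genes 3 rose (21.4%, near the 18.0% of all genes tested) and 0 fell. The median log2 fold change was 0.24, from -0.12 to 0.41. Both ALP libraries exceeded both controls for 12 of these genes (85.7%, against 38.2% of all genes tested). All 7 genes of the alpha ring, which gates entry to the barrel, were higher in both ALP libraries, and 2 of them passed the test. Psma1 measured 156 and 156 CPM under ALP against 118 and 117 CPM in control. The difference, 0.41 ± 0.08 on the log2 scale (SE, 2 libraries a group), had an adjusted p = 0.0191 by edgeR, and the libraries of a group were nearly equal. Psma3 measured 102 and 115 CPM under ALP against 80.5 and 86.4 CPM in control, a log2 difference of 0.38 ± 0.10 (edgeR adjusted p = 0.0391). Reads of Psma3 may be shared with the processed pseudogene Gm13835, which matches 665 bases of its transcript at 100% identity and itself measured 42.9 and 43.5 CPM under ALP against 31.3 and 32.3 CPM in control. The sum of both was again higher under ALP, at 145 and 159 CPM against 112 and 119 CPM in control. Psma4, Psma5, Psmb3, Psmb5, Psmc1, Psmd2 and Psmd11 also have copies of at least 95% identity, so their values are uncertain, and how far cannot be told without knowing how reads with several positions were counted.

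Psma4 fell just short of the threshold (edgeR adjusted p = 0.0539), with 145 and 153 CPM under ALP against 124 and 124 CPM in control. The alpha ring genes with the weakest evidence were Psma6, with 150 and 149 CPM under ALP against 130 and 129 CPM in control (adjusted p = 0.0907 by edgeR), and Psma7, with 140 and 137 CPM under ALP against 113 and 123 CPM in control. The log2 differences of Psma2 and Psma5 were 0.25 and 0.26. The whole ring thus lay between 0.21 and 0.41 on the log2 scale. Psma8, the form of the alpha ring known from the testis, had 0 counts in all libraries, which allows at most 3 counts or 0.194 CPM in any of them.

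In the beta ring 1 of 7 genes rose (14.3%, against 18.0% of all genes tested) and 0 fell. Psmb4, a structural subunit, measured 185 and 194 CPM under ALP against 143 and 159 CPM in control. Its log2 difference of 0.33 ± 0.09 passed narrowly (edgeR adjusted p = 0.0464), and it did not pass with the older quasi-dispersion method or with median-of-ratios scaling. The other structural subunits Psmb2 and Psmb3 were higher in both ALP libraries by 0.23 and 0.20 on the log2 scale (edgeR adjusted p = 0.0951 and 0.0994). Psmb2 measured 85.7 and 80.6 CPM under ALP against 69.9 and 72.0 CPM in control, and Psmb3 measured 115 and 118 CPM under ALP against 102 and 99.9 CPM in control. Psmb1 was lower without passing, at 145 and 136 CPM under ALP against 154 and 151 CPM in control (log2 difference -0.12 ± 0.08, edgeR adjusted p = 0.313, and -0.060 without ALP replicate B).

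None of the genes for the 3 constitutive catalytic subunits passed the test. Psmb5, which encodes the chymotrypsin-like subunit, measured 85.1 and 89.3 CPM under ALP against 88.0 and 90.8 CPM in control, and its libraries overlapped (log2 difference -0.04 ± 0.08, edgeR adjusted p = 0.773). Psmb6, for the caspase-like subunit, measured 107 and 99.0 CPM under ALP against 95.2 and 91.3 CPM in control, a log2 difference of 0.14 ± 0.09. Psmb7, for the trypsin-like subunit, measured 85.7 and 96.1 CPM under ALP against 81.6 and 69.3 CPM in control, a log2 difference of 0.27 ± 0.12 (edgeR adjusted p = 0.13). For Psmb6 and Psmb7 the groups did not overlap, yet neither passed. The log2 difference of Psmb6 was 0.081 without ALP replicate A, and that of Psmb7 was 0.16 with control B left out and 0.38 with control A left out. Exons of Psmb7 overlap those of Nek6 on the opposite strand over 11.8% of their bases, with 678 counts for Nek6 over all libraries and 5623 for Psmb7.

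The regulatory particle held the larger share of the calls. Of its 17 genes among the members 7 rose (41.2%, against 18.0% of all genes tested) and 0 fell (median log2 fold change 0.26). Both ALP libraries lay above both controls for 15 of the 17 (88.2%, against 38.2% of all genes tested). Its subunit genes Adrm1 and Sem1 have other symbols, so they are counted in the pathway list below, and neither passed. Adrm1 measured 111 and 110 CPM under ALP against 91.7 and 105 CPM in control (log2 difference 0.16 ± 0.10, edgeR adjusted p = 0.241). Sem1 was lower in both ALP libraries, at 63.0 and 63.9 CPM against 75.8 and 68.5 CPM in control (-0.19 ± 0.10, edgeR adjusted p = 0.18). Whether the regulatory particle differed from the core particle was not tested, and their medians lay close together. Among the 6 ATPases of the base, which unfold substrates and open the gate of the barrel, 2 rose. Psmc3 measured 223 and 218 CPM under ALP against 174 and 181 CPM in control (log2 difference 0.31 ± 0.08, edgeR adjusted p = 0.036). Psmc1 measured 176 and 192 CPM under ALP against 141 and 151 CPM in control (log2 difference 0.34 ± 0.09, edgeR adjusted p = 0.0405). In both genes the gap between the groups was at least as wide as the gaps within them. Exons of Psmc3 share 8.25% of their bases with Slc39a13 on the opposite strand, which had 3340 counts over all libraries against 13469 for Psmc3. Psmc4 lay just outside the threshold with 123 and 131 CPM under ALP against 98.0 and 108 CPM in control (edgeR adjusted p = 0.0539). Psmc5, with 136 and 144 CPM under ALP against 117 and 127 CPM in control, and Psmc6, with 153 and 163 CPM under ALP against 142 and 143 CPM in control, showed the smallest differences of the ring. Psmc2 had a log2 difference of 0.26.

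The base also holds large scaffold and receptor subunits, of which Psmd1 rose. Psmd1 measured 238 and 249 CPM under ALP against 175 and 185 CPM in control, a log2 difference of 0.44 ± 0.08 (edgeR adjusted p = 0.0191). Psmd2, the other large scaffold, had the highest level of all members per deposited gene length. It measured 564 and 557 CPM under ALP against 458 and 477 CPM in control. Its groups did not overlap, but the difference, 0.26 ± 0.08 in log2 units, missed the threshold (edgeR adjusted p = 0.0604). Psmd4, a receptor for ubiquitin chains, measured 153 and 146 CPM under ALP against 141 and 149 CPM in control, and its libraries overlapped.

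In the lid, which carries the deubiquitinating activity of the complex, 4 of the 8 genes among the members rose. The lid subunit gene Sem1, given above, is not among these 8. Psmd14, the gene of the deubiquitinase that cuts ubiquitin chains from substrates, measured 106 and 119 CPM under ALP against 79.1 and 78.6 CPM in control (log2 difference 0.52 ± 0.09, edgeR adjusted p = 0.0181). Psmd7, whose product pairs with that deubiquitinase, measured 180 and 190 CPM under ALP against 136 and 143 CPM in control (0.41 ± 0.08, edgeR adjusted p = 0.0217). Psmd3, a structural lid subunit on chromosome 11 (98682554 to 98695979, GRCm38), measured 262 and 293 CPM under ALP against 175 and 196 CPM in control (0.58 ± 0.10, edgeR adjusted p = 0.0176). In all 3 the groups did not overlap. Psmd12, also structural, measured 122 and 157 CPM under ALP against 102 and 94.0 CPM in control, a log2 difference of 0.51 ± 0.14 (edgeR adjusted p = 0.0412) that was 0.33 without ALP replicate B and 0.68 without ALP replicate A. Psmd8 measured 192 and 185 CPM under ALP against 189 and 189 CPM in control, a log2 difference of 0.00 ± 0.08. Psmd13 measured 136 and 138 CPM under ALP against 122 and 130 CPM in control, and Psmd6 and Psmd11 had log2 differences of 0.21 and 0.22. These 3 did not pass.

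The activators bind the core in place of, or beside, the regulatory particle. Of the 4 activator genes 1 rose and 0 fell, and the regulator Psmf1 rose. Psme3 encodes the nuclear activator PA28 gamma, and lies on chromosome 11 (101316213 to 101323537, GRCm38). It measured 208 and 214 CPM under ALP against 135 and 147 CPM in control, a log2 difference of 0.58 ± 0.09 with the smallest adjusted p of all members (edgeR adjusted p = 0.0151). Psme4, which encodes the large activator PA200, measured 220 and 217 CPM under ALP against 249 and 235 CPM in control. Its groups did not overlap and the log2 difference of -0.15 ± 0.08 did not pass (edgeR adjusted p = 0.196).

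Psme1 and Psme2 encode the subunits of the interferon-inducible activator PA28. Psme1 measured 47.6 and 43.4 CPM under ALP against 41.3 and 49.1 CPM in control, with overlapping libraries (log2 difference 0.01 ± 0.12). Psme2 measured 34.0 and 28.4 CPM under ALP against 47.6 and 38.6 CPM in control, or -0.46 ± 0.15 in log2 units, which missed the threshold (edgeR adjusted p = 0.0677). With 1 library left out, its log2 difference lay between -0.60 and -0.32. A copy of this gene, Psme2b, matches 794 bases of its transcript at 99.4% identity and measured 35.9 and 37.6 CPM under ALP against 29.4 and 42.8 CPM in control. The 2 genes together had 69.9 and 66.1 CPM under ALP against 77.0 and 81.4 CPM in control, so the order of the groups was the same for the sum. Psmf1, the gene of the proteasome regulator PI31, rose, with 46.7 and 45.6 CPM under ALP against 35.0 and 33.4 CPM in control (0.43 ± 0.10, edgeR adjusted p = 0.0282).

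Among the inducible subunits of the immunoproteasome, Psmb10 rose and the others did not pass. Psmb10 encodes the inducible counterpart of the trypsin-like subunit and lies on chromosome 8 (105935735 to 105938444, GRCm38). It measured 21.4 and 20.2 CPM under ALP against 8.83 and 13.0 CPM in control. The log2 difference of 0.93 ± 0.21 was the largest increase of any member (edgeR adjusted p = 0.0292), and it was 0.66 with control A left out and 1.24 with control B left out. Psmb8, the counterpart of Psmb5, measured 5.50 and 4.33 CPM under ALP against 3.17 and 5.43 CPM in control, with overlapping libraries. Its log2 difference was 0.20 ± 0.32, and it was -0.15 without control replicate A.

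Psmb9, the counterpart of Psmb6, measured 2.26 and 2.0 CPM under ALP against 3.57 and 3.37 CPM in control. The groups did not overlap, and the log2 difference of -0.70 ± 0.26 rested on 39 and 31 counts under ALP against 63 and 59 counts in control (edgeR adjusted p = 0.0858). Its exons share 5.79% of their bases with exons of Tap1 on the opposite strand, and Tap1, which encodes a subunit of the peptide transporter for antigen presentation, had 1948 counts over the 4 libraries against 192 for Psmb9. Tap1 measured 29.1 and 21.4 CPM under ALP against 29.7 and 33.6 CPM in control. Psmb11, the subunit known from the thymus, had 0 counts in all libraries, with the same limit as for Psma8. The immune cell markers given above were at or near 0 in all libraries.

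Set against its constitutive counterpart per length, Psmb10 came closest to its level among the 3 inducible genes. In CPM per kilobase of the deposited gene length, Psmb10 stood at 50.1% and 42.1% of Psmb7 under ALP, against 21.7% and 37.7% in control. Psmb8 stood at 2.12% and 1.59% of Psmb5 under ALP, against 1.18% and 1.96% in control. Psmb9 stood at 1.08% and 1.04% of Psmb6 under ALP, against 1.92% and 1.89% in control. The ratio of the first pair was thus higher and that of the last pair lower in both ALP libraries than in both controls, while the ranges of the Psmb8 pair overlapped. The size of each ratio depends on the deposited lengths, but its order between libraries does not. These lengths were 1705 bases for Psmb10 and 3421 for Psmb7, 2736 for Psmb8 and 899 for Psmb5, and 3659 for Psmb9 and 1872 for Psmb6. With 2 libraries against 2, the smallest p an exact permutation test can give is 0.333, so these ratios are given as values.

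**Figure D2:**
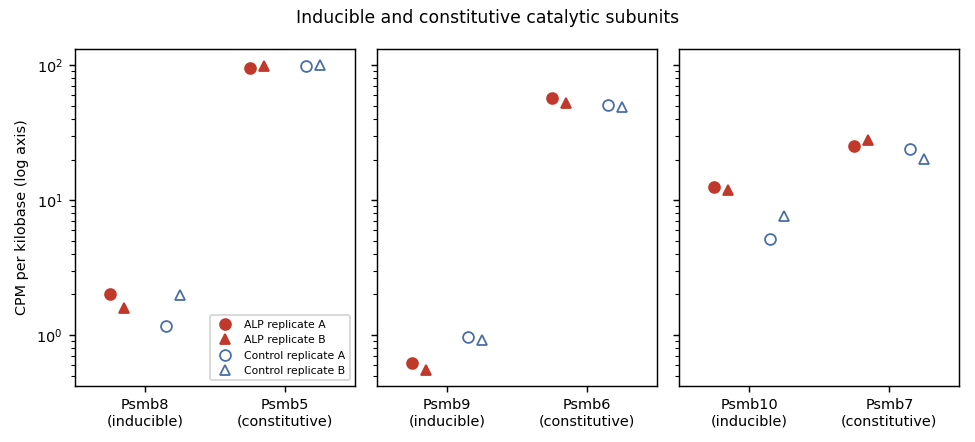
Level per length (CPM per kilobase) of the inducible catalytic subunit genes and their constitutive counterparts in each library, on a log axis. Red filled symbols are ALP libraries and blue open symbols control libraries (circles replicate A, triangles replicate B). Psmb10 lies within a factor of 10 of Psmb7 and is higher in both ALP libraries, while Psmb8 and Psmb9 lie far below Psmb5 and Psmb6.

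Assembly factors guide the subunits into the complex and are not part of the finished protease. Of the 7 genes 1 rose (14.3%, against 18.0% of all genes tested) and 0 fell. All 7 had a log2 difference above 0 (median 0.20). Psmg2, a chaperone of alpha ring assembly, measured 31.1 and 33.7 CPM under ALP against 20.6 and 22.5 CPM in control, a log2 difference of 0.59 ± 0.12 (edgeR adjusted p = 0.0229). Its partner Psmg1 measured 23.6 and 24.1 CPM under ALP against 20.4 and 21.6 CPM in control (0.18 ± 0.12, edgeR adjusted p = 0.282). The partners of this heterodimer thus differed in whether they passed, but the difference between them was not tested. Psmg3 measured 6.60 and 8.28 CPM under ALP against 7.25 and 6.80 CPM in control, with overlapping groups. Psmg4, which pairs with it, measured 6.02 and 7.37 CPM under ALP against 4.30 and 5.71 CPM in control.

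The 3 chaperones of base assembly, Psmd5, Psmd9 and Psmd10, did not pass. Psmd5 measured 70.1 and 71.5 CPM under ALP against 59.0 and 62.1 CPM in control (log2 difference 0.23 ± 0.09, edgeR adjusted p = 0.0994). Psmd9 measured 36.9 and 42.3 CPM under ALP against 32.9 and 36.7 CPM in control. Psmd10, also known as gankyrin, measured 24.6 and 24.2 CPM under ALP against 19 and 23.4 CPM in control. In all 3 both ALP libraries lay above both controls, narrowly for Psmd9 and Psmd10, and the fitted log2 differences were 0.19 to 0.23. That of Psmd10 was 0.052 with control A left out and 0.37 with control B left out, and that of Psmd9 was 0.097 without ALP replicate B.

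Per length, the constitutive subunits were the most abundant class and spanned a modest range. In the ALP libraries the mean level of the 31 core and regulatory genes tested lay between 22.9 and 139 CPM per kilobase, with a median of 53.3. In the control libraries it lay between 19.6 and 116 CPM per kilobase, with a median of 43.8. By this measure Psmd2 had the highest level in both groups and Psmd11 the lowest of these 31. The deposited gene length can exceed that of the longest coding transcript, as for Psmd11 (6383 against 2848 bases). For Psmb5 both lengths were 899 bases. The order of genes and classes therefore depends on the length used. Assembly factors had a median of 12.1 CPM per kilobase under ALP and 9.02 in control. The inducible catalytic subunits had a median of 1.80 CPM per kilobase under ALP and 1.57 in control.

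**Figure D3:**
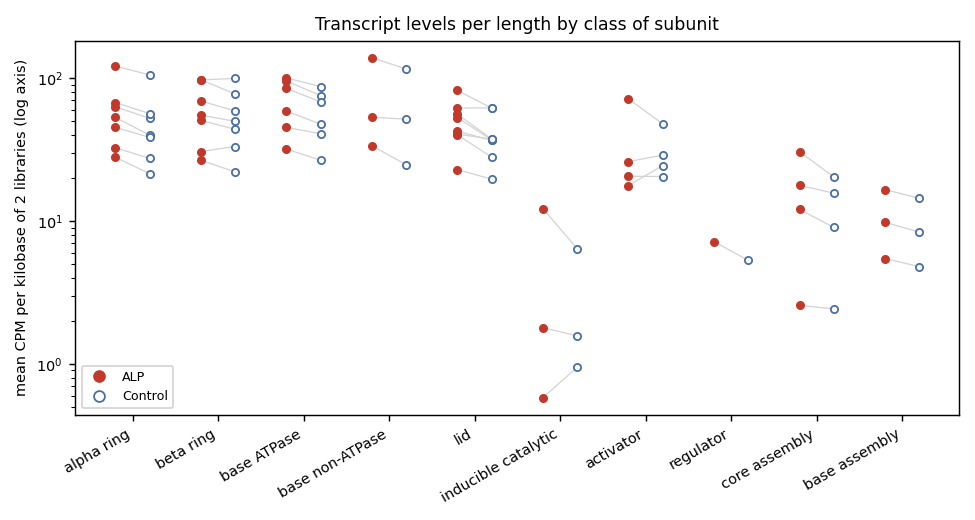
Mean level (CPM per kilobase of the deposited gene length) of the 2 libraries of each group for every tested proteasome gene, by class, on a log axis. Filled red points are ALP, open blue points control, and a grey line joins the points of 1 gene. Core and regulatory subunits lie between 19.6 and 139 CPM per kilobase, most assembly factors lie lower, and Psmb8 and Psmb9 are lowest.

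Promoter sequences, 250 bases before to 50 bases after the annotated start, were at hand for 40 members (RefSeq, GRCm38.p6). They are shown for 2 genes that rose, Psmd12 and Psme3, and for 2 that did not pass, Psmb5 and Psme4, since members of both kinds hold the same short motifs. Each runs 5′ to 3′ in the direction of the gene. Capitals mark the motifs found on either strand among TGACNNNGC (core of the antioxidant response element, the kind of site that NFE2L1 and NFE2L2 bind), TGACTCA (AP-1), CCGGAAG (ETS factors), CCAAT (NF-Y) and CACGTG (E-box). The first 2 motifs can overlap where the spacer letters allow it.
Psmd12, chr11:107479278-107479577, plus strand: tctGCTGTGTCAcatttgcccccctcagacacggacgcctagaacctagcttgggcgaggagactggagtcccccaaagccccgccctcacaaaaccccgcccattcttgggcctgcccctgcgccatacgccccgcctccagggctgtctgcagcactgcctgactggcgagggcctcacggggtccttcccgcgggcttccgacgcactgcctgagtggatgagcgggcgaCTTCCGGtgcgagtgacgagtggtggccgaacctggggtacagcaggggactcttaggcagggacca
Psme3, chr11:101315963-101316262, plus strand: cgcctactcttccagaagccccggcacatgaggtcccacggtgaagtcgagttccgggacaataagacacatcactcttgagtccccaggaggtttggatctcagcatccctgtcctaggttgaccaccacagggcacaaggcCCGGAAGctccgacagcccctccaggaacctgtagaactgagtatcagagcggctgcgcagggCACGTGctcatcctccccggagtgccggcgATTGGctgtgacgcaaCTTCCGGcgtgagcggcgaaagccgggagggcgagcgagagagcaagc
Psmb5, chr14:54617946-54618245, minus strand: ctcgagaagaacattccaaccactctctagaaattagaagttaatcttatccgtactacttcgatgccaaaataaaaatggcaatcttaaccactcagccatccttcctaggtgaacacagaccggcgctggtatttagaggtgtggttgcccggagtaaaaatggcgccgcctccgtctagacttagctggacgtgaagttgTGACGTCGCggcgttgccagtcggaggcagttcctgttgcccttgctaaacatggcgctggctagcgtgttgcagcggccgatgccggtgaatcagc
Psme4, chr11:30771525-30771824, plus strand: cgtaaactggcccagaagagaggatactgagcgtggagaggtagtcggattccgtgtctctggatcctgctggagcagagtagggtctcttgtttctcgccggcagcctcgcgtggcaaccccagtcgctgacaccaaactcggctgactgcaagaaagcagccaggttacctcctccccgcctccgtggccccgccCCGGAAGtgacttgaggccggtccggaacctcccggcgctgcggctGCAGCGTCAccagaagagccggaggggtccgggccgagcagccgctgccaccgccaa

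The Psmd12 window holds the antioxidant response core as GCTGTGTCA, from position -247 to -239 (counted from 0 at the start base), and the ETS motif as CTTCCGG from -17 to -11. Psme3 holds 2 ETS motifs, an E-box and a CCAAT box. Psmb5 holds the antioxidant response core as TGACGTCGC from -47 to -39, and Psme4 holds it as GCAGCGTCA from -7 to 1, with an ETS motif from -53 to -47. The most common of these motifs among the members, relative to all promoters, was that of the ETS factors, found in 14 of 40 members (35.0%) against 8.86% of all 32851 promoter windows. A member counts once if any window of it holds the motif, whereas all windows count singly. The shares thus differ in unit. The CCAAT box was found in 14 members (35.0%) against 37.4% of windows. The antioxidant response core was found in 6 members (15%) against 12.4% of windows, the E-box in 4 (10%) against 7.15% and the AP-1 motif in 1 (2.50%) against 5.20%. Of the 10 genes that rose and have a window, 3 held the ETS motif and 1 the antioxidant response core, and of the 29 tested genes that did not pass, 11 and 5 held them. These are matches of letters and say nothing about binding.

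Genes that act with the proteasome were described from a list of 39, of which 38 were tested. Of these 9 rose (23.7%) and 4 fell (10.5%), shares near the 18.0% and 12.9% of all genes tested, so the counts do not set the list apart. The counts were 14 and 8 without ALP replicate A and 0 in both directions with either control library left out. The 4 that fell included 3 of the 6 genes of the control of subunit transcription. Nfe2l1, the gene of the factor that drives subunit transcription, measured 438 and 352 CPM under ALP against 605 and 579 CPM in control (log2 difference -0.58 ± 0.12, edgeR adjusted p = 0.0251). Ddi2, which encodes the protease that cleaves NFE2L1 into its active form, measured 140 and 118 CPM under ALP against 196 and 183 CPM in control (-0.56 ± 0.11, edgeR adjusted p = 0.0208). Nfe2l3, of the same family as Nfe2l1, measured 9.89 and 4.14 CPM under ALP against 27.0 and 25.2 CPM in control (-1.88 ± 0.38, edgeR adjusted p = 0.0214). Nfe2l2, which encodes the antioxidant factor NRF2, rose instead, with 182 and 198 CPM under ALP against 147 and 140 CPM in control (0.41 ± 0.09, edgeR adjusted p = 0.0254). Ngly1 and Keap1, the other genes of this list, did not pass, and the levels of the proteins were not measured.

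Enzymes and shuttle factors that feed the proteasome were among the genes that rose. Usp14, a deubiquitinase bound to the regulatory particle, measured 132 and 147 CPM under ALP against 90.3 and 93.6 CPM in control (0.60 ± 0.09, edgeR adjusted p = 0.0151). Ubqln2, a ubiquitin shuttle gene, measured 127 and 155 CPM under ALP against 78.5 and 89.6 CPM in control (0.74 ± 0.13, edgeR adjusted p = 0.0174). Uba1, the main ubiquitin-activating enzyme gene, measured 681 and 715 CPM under ALP against 526 and 551 CPM in control (0.38 ± 0.09, edgeR adjusted p = 0.0305). In each of these genes both ALP libraries were above both controls. Nploc4, an adaptor of the p97 segregase, rose by 0.39 ± 0.09 (edgeR adjusted p = 0.0325), and Pomp, the maturation factor of the core particle, rose by 0.36 ± 0.08 (edgeR adjusted p = 0.027). Txnl1 and Uchl5, proteins bound to the regulatory particle, rose by 0.37 and 0.43. Zfand5, an activator of the proteasome, fell by 0.58, or by 0.38 without ALP replicate B.

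Of the 6 neighbours and regulators of the immunoproteasome genes, 1 rose (16.7%, near the 18.0% of all genes tested) and 0 fell. Their median log2 difference was -0.28. Nlrc5 (-1.72, on 4 to 37 counts a library) and Tap2 (-0.24) were lower in both ALP libraries than in both controls without passing. Psme2b, given above, overlapped. Irf1, a transcription factor gene of the interferon response, measured 39.9 and 49.0 CPM under ALP against 20.7 and 27.5 CPM in control (0.88 ± 0.18, edgeR adjusted p = 0.0235). Tap1, given above, and Irf1 thus lay on opposite sides of 0, as did Psmb9 and Psmb10, although of these 4 Irf1 and Psmb10 alone passed. Of the 6 ubiquitin genes and activating enzymes, none but Uba1 passed, and Rps27a, with 321 and 190 CPM under ALP against 165 and 359 CPM in control, varied more within the groups than between them.

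**Figure D4:**
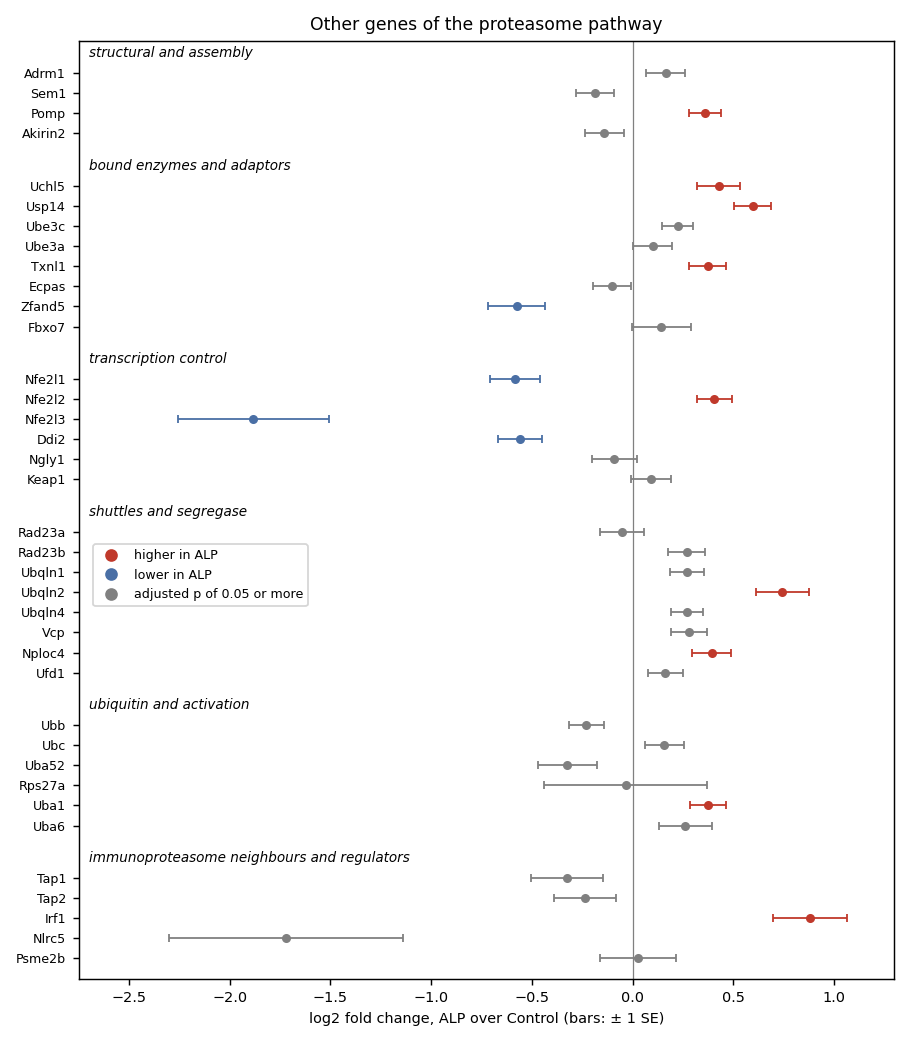
Log2 fold change (ALP over control) with its standard error for 37 of the 38 tested genes of the proteasome pathway outside the subunit genes, by list. Red points rose, blue points fell and grey points did not pass at the adjusted p threshold of 0.05 (edgeR). Nfe2l1, Nfe2l3, Ddi2 and Zfand5 lie to the left of 0, and Usp14, Ubqln2 and Irf1 are the rightmost of the genes that rose.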

How the data were processed

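Total RNA was isolated with TRIzol and libraries were made by a service company, per the labels' protocols. No source used here gives the kit, layout or strand setting, or how reads with several positions were handled. Reads of a gene and its antisense partner therefore cannot be told apart. The submitters' processing notes name HISAT2 2.0.5 and featureCounts 1.5.0-p3. The notes name GRCh38, but the gene identifiers are mouse ones, and 46 of the 48 members have the same coordinates in GENCODE M21 (GRCm38). Coordinates are printed as GRCm38.

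The authors deposited raw counts per library, and 4 further per-library columns of the table were not used here. Levels between genes were compared as CPM per kilobase of the deposited gene length. The authors' deposited table also holds a normalized signal (group means, not printed), log2 fold changes and p-values. The test behind them is not stated in the sources. Each column was assigned to its group only, since its number differs from those of the labels, and A and B follow column order.

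The deposited counts were tested with edgeR 4.0.16 (R 4.3.3). The filter was filterByExpr (minimum count 10, minimum total 15), which left 14056 genes, and the scaling TMM. The groups were compared by the two-sided quasi-likelihood F test (legacy = FALSE), with Benjamini-Hochberg adjustment over all genes tested and a threshold of 0.05. The fit had 2 residual degrees of freedom. The standard error is the log2 fold change divided by the root of the F statistic. The procedure was tested on simulated data with changes of at least 2-fold. Smaller changes, such as those of the members, were not simulated. The alternatives were median-of-ratios scaling, no filter, DESeq2 1.42.0, limma-voom (limma 3.58.1), a threshold of 0.01, leaving out each library and, added after seeing the data, the older quasi-dispersion method. All tested members had at least 31 counts in every library. Limits given for 0 counts cover counting error only, since no molecular identifiers are named and PCR copies may have been counted.

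The members, lists, classes and motifs were chosen with earlier results of these data known. Named genes were the catalytic subunits, activators, regulator and assembly factors and, in every other class, the 3 members with the smallest and the 2 with the largest p (a member that fell would have been added). From the pathway list they were the 10 with the smallest p. Psmd12, Adrm1, Sem1, Txnl1, Uchl5, Zfand5, Tap1, Tap2, Nlrc5 and Rps27a and the promoters shown were chosen after their values were seen. Near copies were sought with blastn (at least 95% identity over 200 bases), and 9 members had one. Paaf1, also on the pathway list, was not analysed here, and 1 other gene of that list is counted but not reported here by itself.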

Additional observations from a re-analysis of the deposited data

How the results depend on the processing

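The 14 subunit genes higher in ALP were 13 with median-of-ratios scaling or the older quasi-dispersion method, 14 with DESeq2 and 15 with limma-voom. At an adjusted p under 0.01, and without the low-count filter (24 members at an unadjusted p under 0.05), the count was 0. With 1 library left out it ranged from 0 to 24, and members lower in ALP from 0 to 1. The same settings gave 0 higher and 0 lower for the pathway list, and 0 and 0 for all genes, where the filter-free fit had 3688 higher and 3380 lower at an unadjusted p under 0.05. With 1 library left out, the pathway list had 0 to 14 higher and 0 to 8 lower, and all genes had 0 to 3872 higher and 0 to 3646 lower. A group left with 1 library is assumed to vary like the other one.

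Signs turned for 5 genes, none of them called. With 1 library left out, the log2 difference ranged from -0.15 to 0.64 for Psmb8, from -0.002 to 0.092 for Psmd4, from -0.037 to 0.036 for Psmd8, from -0.12 to 0.14 for Psme1 and from -0.079 to 0.23 for Psmg3. The cause was not tested. The other 41 tested members kept their sign in every fit. Depth limits Psmb8 and Psmb9, with 313 and 192 counts over the 4 libraries. No paired analysis was possible because the numbers in the column names do not match the labels' replicate numbers.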
